A study of Mus musculus with 9 samples.

Results

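The genes described here are 10 that slow or stop the cell cycle or belong to the response to the tumour suppressor p53. They are the 7 inhibitors of cyclin-dependent kinases (CDKs), namely Cdkn1a, Cdkn1b and Cdkn1c of the Cip/Kip family and Cdkn2a, Cdkn2b, Cdkn2c and Cdkn2d of the INK4 family, together with Trp53, which encodes p53, and 2 classical p53 targets, Mdm2 and Ccng1. They were taken by name from the 56305 gene identifiers of a count table of mouse kidney RNA, and all 10 were found. No filter on their values was used, though they were chosen with earlier results of these data known. The study asked what Pfkfb3, the gene of an enzyme that drives glycolysis, does in renal fibrosis, and sequenced total RNA of kidney tissue from 3 groups with 3 libraries in each. The first group were mice with a conditional Pfkfb3 knockout in proximal tubular cells, at day 14 after ischemia-reperfusion injury (IRI), for which both renal arteries were clamped for 30 minutes. The second were Pfkfb3 wild-type littermates at day 14 after the same injury, and the third were Pfkfb3 wild-type mice after a sham operation. No knockout sham group was analysed here, so the knockout was read only in injured kidneys, and the sources used here give no Cre driver, age or sex of the mice.

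CDK inhibitors of the Cip/Kip family bind complexes of cyclins with CDKs, while those of the INK4 family bind CDK4 and CDK6 and keep them from D-type cyclins, so that the retinoblastoma protein stays active and E2F factors stay silent. The protein p53 is held low by the ubiquitin ligase MDM2, is stabilised by DNA damage and other stress, and then switches on Cdkn1a, Mdm2, Ccng1 and genes of repair and cell death. In the kidney, Cdkn1a and Cdkn2a are known as markers of tubular cells that stop dividing after injury, and Cdkn1c is known from podocytes, the epithelial cells of the glomerular filter.

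Each library held between 15626792 and 19987842 counts, and levels are given as CPM, counts divided by library size, after scaling with the trimmed mean of M values (TMM). Genes were tested with edgeR's quasi-likelihood test, and a gene was called where its Benjamini-Hochberg adjusted p was under 0.05. Whether the 3 libraries of a group are from different mice is not stated in the labels, and p-values therefore cover only the spread between these libraries. Pfkfb3 itself had 25.2, 19.7 and 17.3 CPM in injured knockout libraries, 36.2, 34.4 and 25.2 CPM in injured wild-type libraries and 19.97, 20.1 and 21.9 CPM in sham libraries. It was lower in injured knockout than injured wild-type libraries (log2 fold change -0.62, SE 0.17, adjusted p = 0.00773), and its counts cover all cell types and the whole gene. Markers of the kidney's cell types differed between the groups. The summed level of 12 proximal tubule markers was 24336 to 25878 CPM in injured knockout libraries, 4699 to 7263 CPM in injured wild-type libraries and 29159 to 31001 CPM in sham libraries. For 10 macrophage and monocyte markers the sum was 139 to 180.3 CPM in injured knockout, 1726 to 1998 CPM in injured wild-type and 155 to 216 CPM in sham libraries. For 10 fibroblast and pericyte markers it was 240.0 to 438 CPM in injured knockout, 2217 to 2975 CPM in injured wild-type and 193 to 291 CPM in sham libraries. Mitochondrial genes took 12.7 to 13.9% of counts in injured knockout, 6.08 to 7.20% in injured wild-type and 8.46 to 11.3% in sham libraries, and their part in the results or in the scaling was not tested. No macrophage, fibroblast or proximal tubule marker was at 0 in any library. The part of these cell types in the results that follow was not tested, and in bulk kidney tissue fewer cells of a type and less RNA per cell cannot be told apart. Knockout replicate 1 stood apart from the other knockout libraries. Its podocyte sum was lower, at 164 CPM against 510.4 and 544 CPM, with all 12 podocyte and all 10 endothelial markers lowest in it, and its principal cell sum was higher, at 2454 CPM against 1252 and 1294 CPM.

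Promoter sequence is shown for 5 of the genes because they set the p53 gene, its best known targets and the inhibitor with the widest range side by side. RefSeq windows of the 250 bases before a gene's start (build GRCm38.p6) were matched for 9 of the 10 genes, with 12 windows in all, and Cdkn1c was not matched. Both strands were searched for the p53 half-site, a short element that p53 binds in pairs, and for the TATA box TATAAA, the GC box GGGCGG, the AP-1 element TGANTCA, the E-box CACGTG, the E2F element TTTCCCGC and the NF-kB motif by its consensus. Capitals in these sequences, all written 5′ to 3′ on the gene's own strand, mark matches to the p53 half-site. The Cdkn1a window is chr17:29090729-29090978 (plus strand, the upstream start of 2), the Mdm2 window chr10:117710759-117711008 (minus strand), the Ccng1 window chr11:40755287-40755536 (minus strand), the Trp53 window chr11:69580109-69580358 (plus strand) and the Cdkn2b window chr4:89311033-89311282 (minus strand).
Cdkn1a: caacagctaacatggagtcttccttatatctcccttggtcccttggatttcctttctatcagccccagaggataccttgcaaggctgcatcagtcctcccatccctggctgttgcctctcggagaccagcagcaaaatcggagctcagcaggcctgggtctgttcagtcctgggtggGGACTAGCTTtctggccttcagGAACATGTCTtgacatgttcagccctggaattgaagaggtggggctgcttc
Mdm2: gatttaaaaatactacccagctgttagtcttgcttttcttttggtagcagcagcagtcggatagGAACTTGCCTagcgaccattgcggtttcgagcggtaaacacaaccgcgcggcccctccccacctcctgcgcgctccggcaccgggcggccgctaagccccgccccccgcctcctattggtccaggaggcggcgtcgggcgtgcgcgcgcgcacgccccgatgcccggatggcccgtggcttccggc
Ccng1: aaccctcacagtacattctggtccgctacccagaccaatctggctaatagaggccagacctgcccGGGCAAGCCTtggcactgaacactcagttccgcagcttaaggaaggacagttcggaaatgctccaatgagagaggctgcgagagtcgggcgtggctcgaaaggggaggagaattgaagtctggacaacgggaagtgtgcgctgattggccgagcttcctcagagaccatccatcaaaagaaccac
Trp53: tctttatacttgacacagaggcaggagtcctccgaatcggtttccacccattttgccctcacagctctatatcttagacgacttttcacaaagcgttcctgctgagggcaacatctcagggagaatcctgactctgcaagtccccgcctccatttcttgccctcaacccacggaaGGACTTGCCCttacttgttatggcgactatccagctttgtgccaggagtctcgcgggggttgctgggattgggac
Cdkn2b: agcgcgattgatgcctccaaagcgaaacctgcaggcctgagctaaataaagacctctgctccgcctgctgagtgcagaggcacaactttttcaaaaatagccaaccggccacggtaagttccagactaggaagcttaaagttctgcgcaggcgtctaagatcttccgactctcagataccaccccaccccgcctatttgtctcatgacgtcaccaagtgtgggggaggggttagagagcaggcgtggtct
The Cdkn1a window held the matches GGACTAGCTT at 73 to 64 and GAACATGTCT at 51 to 42 bases before the start. The bases directly after GAACATGTCT, tgacatgttc, miss the half-site pattern only at their first base and so were not marked. Mdm2 held GAACTTGCCT at 186 to 177 bases, Ccng1 GGGCAAGCCT at 185 to 176 bases and Trp53 GGACTTGCCC at 75 to 66 bases before their starts. Cdkn2d also held one, GGGCTTGCCT at 102 to 93 bases before the start, whose first bases overlap a GGGCGG match. A half-site was thus in 5 of the 12 windows, against 7.13% of all 32851 RefSeq windows of this length. The Cdkn2b window held none of the 7 motifs. GGGCGG was in 32.7% of all windows, TATAAA in 12.4%, the NF-kB motif in 7.25%, TGANTCA in 6.75%, CACGTG in 6.02% and TTTCCCGC in 0.895%. A match is a description of these letters and not a site that was measured.

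With injury in wild-type kidneys 6 of the 9 tested genes were called: Cdkn1a, Cdkn2b, Cdkn2c, Cdkn2d and Trp53 rose and Ccng1 fell. The median log2 fold change of the 9 tested genes was 0.57, against 0.03 over all 15974 tested genes, and the share of all tested genes called in this comparison was 58.2% (29.5% higher, 28.7% lower), so that 6 of 9 is near the share of all genes. In injured knockout against injured wild-type kidneys 5 of 9 were called: Cdkn1a, Cdkn1b, Cdkn2b and Trp53 fell and Ccng1 rose. There the median was -0.34, against -0.01 over all genes, and 55.9% of all genes were called (27.8% higher, 28.1% lower). Against sham, injured knockout kidneys had Cdkn1b and Cdkn2b lower and Cdkn2c higher, while 17.6% of all genes were called (8.13% higher, 9.48% lower). The number called in that comparison, 2812, was 641 without sham replicate 2, 1064 without sham replicate 3, 1561 without knockout replicate 3 and 1683 without knockout replicate 2. The 9 tested genes had a median of 0.03 in that comparison, against 0.01 over all genes. Cdkn2a had too few counts to pass the low-count filter and was not among the 9. The 3 comparisons share libraries, since injured wild-type libraries enter the first 2 and sham libraries the first and the last, so their values stand side by side and are not independent. All values are relative to a scaling under which the median gene hardly moves. With library size alone the median of all genes was 0.57 for injured wild-type over sham and -0.59 for injured knockout over injured wild-type kidneys. Those of the 9 tested genes whose calls this changes are named with their values. In the gene lists that follow it also changes the calls of genes that are not named. A listed gene given as not called is therefore not called as scaled here, and may be called with library size alone. Of all genes called with injury 50.6% were higher as scaled here, 81.99% with library size alone and 76.6% with library sizes that leave out the 20 most abundant genes. Of those called in injured knockout over injured wild-type kidneys the same choices gave 49.7%, 16.9% and 25.8% higher.

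**Figure D1:**
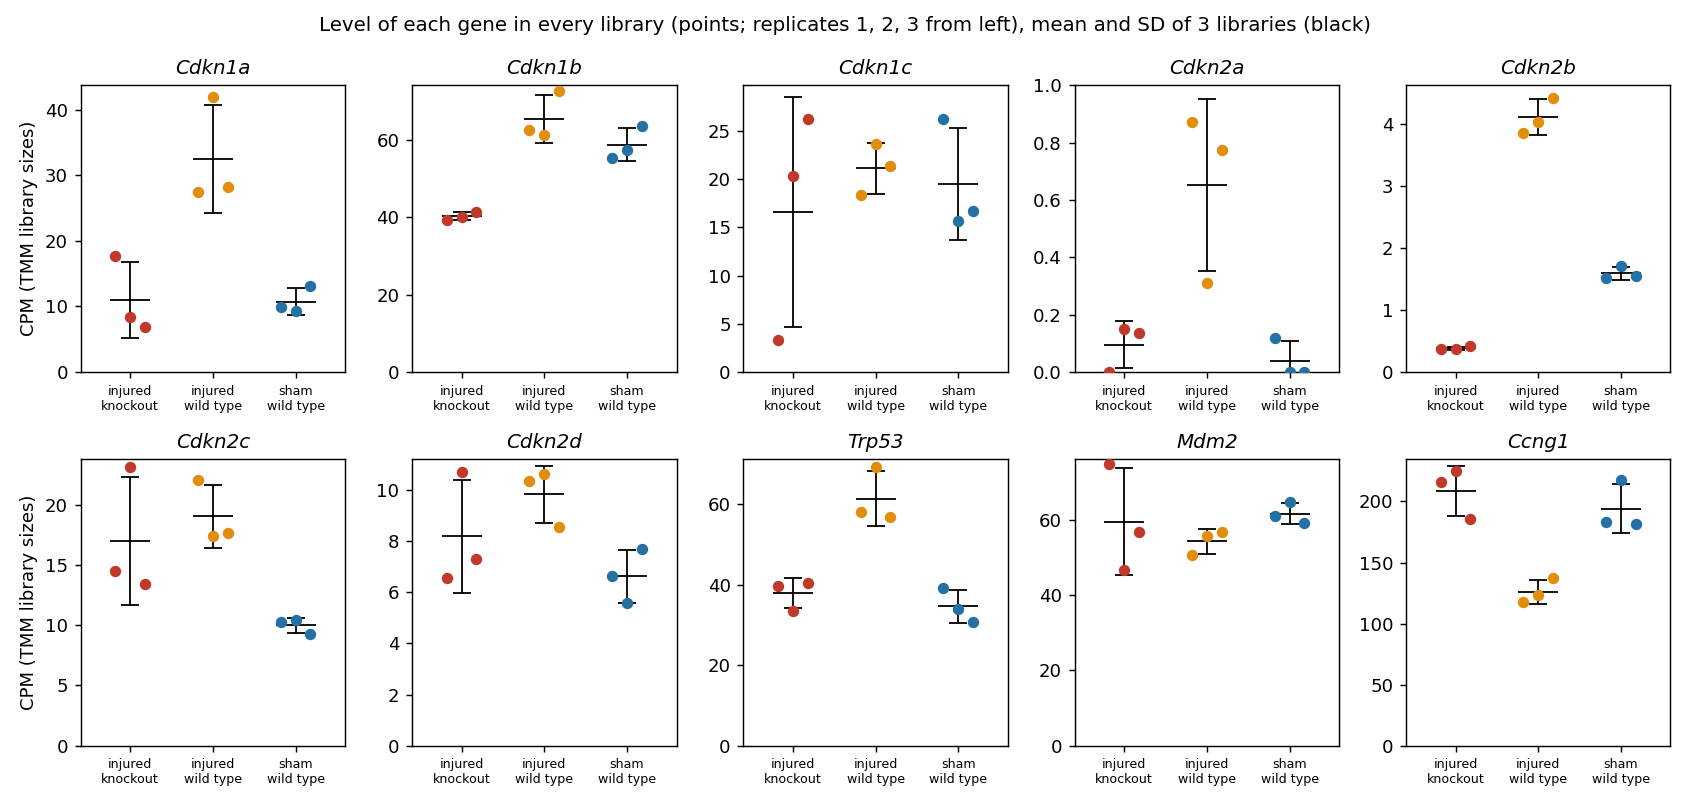
CPM of each of the 10 genes in every library (points, replicates 1 to 3 from the left of each group), with the mean and SD of 3 libraries in black, for injured knockout, injured wild-type and sham wild-type kidneys. Cdkn2b lay between 0.365 and 0.412 CPM in injured knockout libraries, all under the sham and injured wild-type libraries, and Cdkn1c was lowest in knockout replicate 1 at 3.28 CPM.

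**Figure D2:**
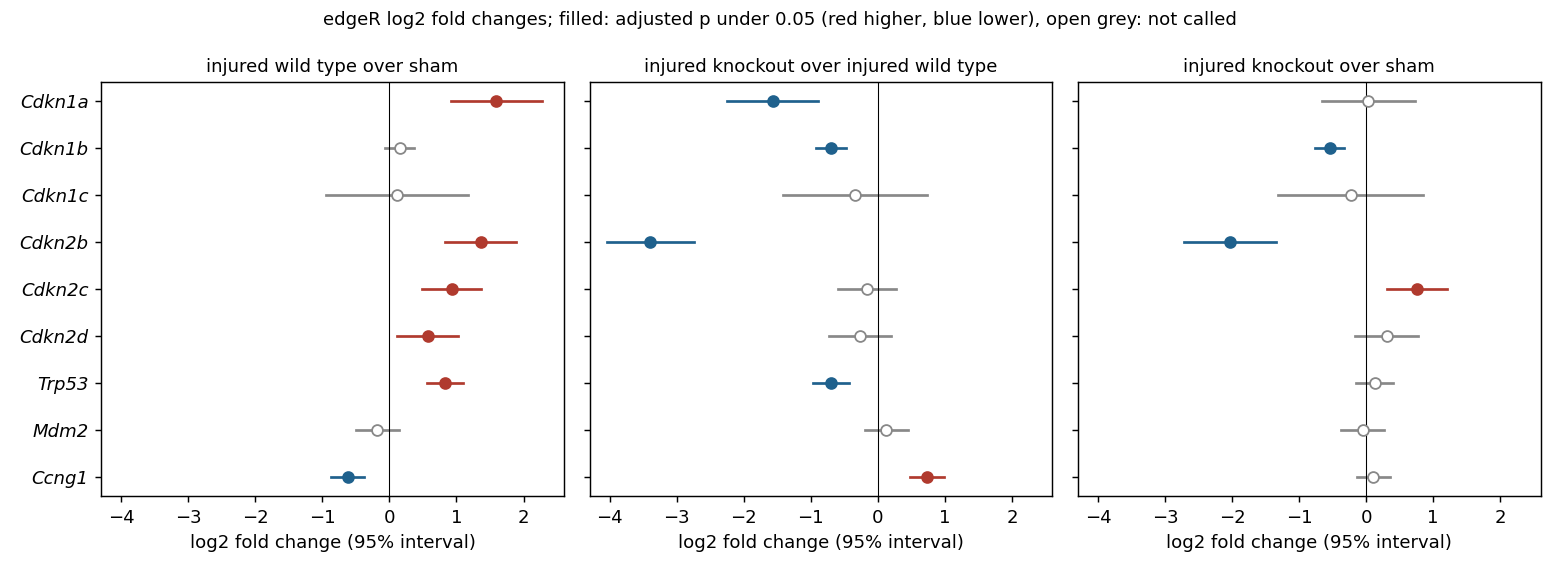
Log2 fold changes of the 9 tested genes with 95% intervals from the edgeR fit in the 3 comparisons, filled where the adjusted p was under 0.05 and open grey where it was not. Cdkn2b had the widest range, from -3.39 between the injured groups to 1.36 with injury, and Ccng1 pointed the opposite way to Cdkn1a and Trp53 in the first 2 comparisons.

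Of the Cip/Kip inhibitors, Cdkn1a changed most with injury and between the injured groups, and least against sham in injured knockout kidneys. It encodes p21, the inhibitor through which p53 arrests the cell cycle (ENSMUSG00000023067, chr17:29090976-29100727, plus strand, GENCODE positions in mm10 here and for the genes that follow). Its level was 17.7, 8.36 and 6.94 CPM in injured knockout libraries, 27.4, 41.96 and 28.2 CPM in injured wild-type libraries and 9.90, 9.24 and 13.1 CPM in sham libraries. Every injured wild-type library lay above every other library, and among knockout libraries replicate 1 was the highest. Cdkn1a rose 3.02-fold with injury, to 32.5 ± 8.19 CPM against 10.8 ± 2.09 CPM in sham libraries (SD, n = 3 each; edgeR log2 fold change 1.60, SE 0.31, adjusted p = 0.000933). In injured knockout kidneys it was 10.99 ± 5.83 CPM, 2.96-fold lower than in injured wild-type kidneys (edgeR log2 fold change -1.57, SE 0.31, adjusted p = 0.00117). The libraries of injured knockout and sham kidneys overlapped, and their difference was not called (95% interval -0.66 to 0.72 on the log2 scale). Without knockout replicate 1 that estimate was -0.49 in place of 0.03, also not called (edgeR adjusted p = 0.168).

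Cdkn1b encodes p27, which holds resting cells out of the cycle (ENSMUSG00000003031, chr6:134920401-134925513, plus strand). It had 39.3, 40.1 and 41.3 CPM in injured knockout libraries, 62.4, 61.1 and 72.5 CPM in injured wild-type libraries and 55.3, 57.2 and 63.6 CPM in sham libraries. The 3 knockout libraries were close together and lay under all 6 others, while injured wild-type and sham libraries overlapped. It fell 1.62-fold in injured knockout against injured wild-type kidneys (edgeR log2 fold change -0.70, SE 0.10, adjusted p = 0.000108) and 1.46-fold against sham (edgeR log2 fold change -0.54, SE 0.10, adjusted p = 0.00768). Both calls held under every alternative tried. Injury in wild-type kidneys gave 0.15 on the log2 scale with no call (95% interval -0.06 to 0.37), though with library size alone the value was 0.70 and called (edgeR adjusted p = 0.000216), 0.57 of it being the shift of the median gene. Cdkn1b mRNA is only part of the control of p27, whose level is also set by degradation.

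Cdkn1c encodes p57, the third member of the family, and is expressed from the maternal allele (ENSMUSG00000037664, chr7:143458339-143461050, minus strand). Its level was 3.28, 20.3 and 26.2 CPM in injured knockout libraries, 18.4, 23.6 and 21.3 CPM in injured wild-type libraries and 26.2, 15.7 and 16.6 CPM in sham libraries. Knockout replicate 1 lay far under all other libraries, and the remaining 8 overlapped across the groups. No comparison was called, with 95% intervals of -0.94 to 1.17 for injured wild-type over sham, -1.42 to 0.73 for injured knockout over injured wild-type and -1.31 to 0.85 for injured knockout over sham kidneys, all on the log2 scale. Without knockout replicate 1 the signs of the 2 knockout comparisons turned, to 0.15 and 0.26. The library with little Cdkn1c was the library with little podocyte RNA, and it was low in other cell types too. Its endothelial sum was 293 CPM, against 742 and 771 CPM in knockout replicates 2 and 3. Its fibroblast and pericyte sum was 240.0 CPM, against 438 and 335 CPM. The part of any of these cell types in the Cdkn1c level was not tested. An antisense gene annotated over Cdkn1c was listed with 0 counts in all 9 libraries, and an opposite-strand gene that shares 273 exonic bases with Cdkn1a with 25 counts, against 3208 for Cdkn1a. The strand setting of the counting is unknown, so these values do not show how many reads of such transcripts were counted for Cdkn1c or Cdkn1a.

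**Figure D3:**
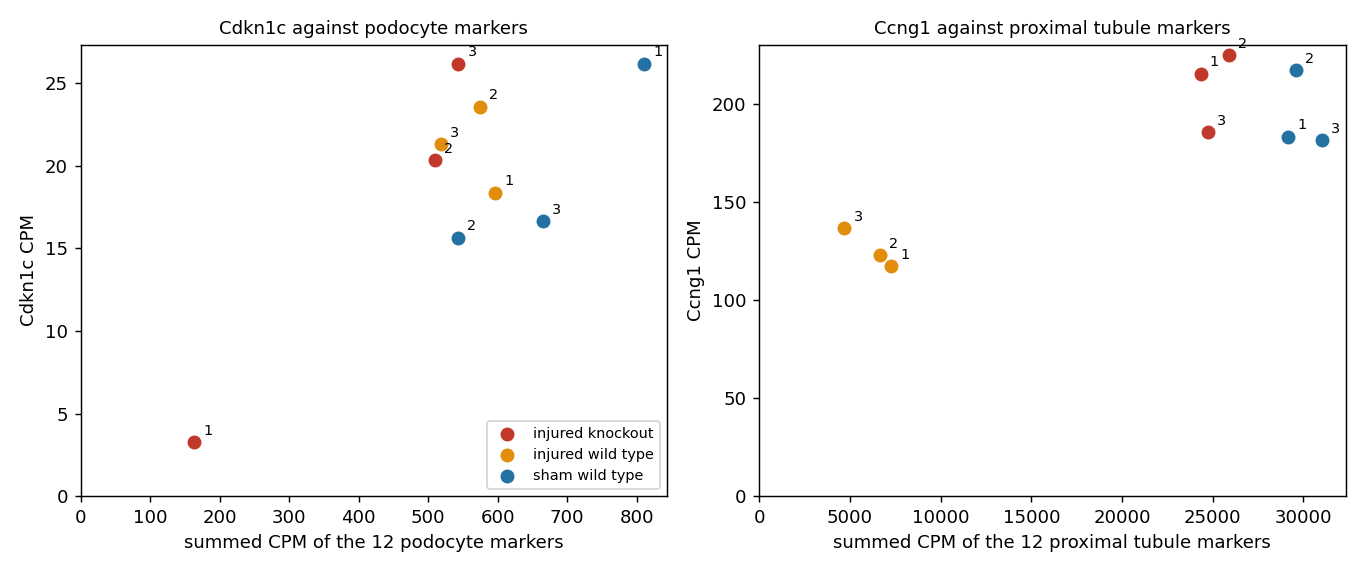
Left, Cdkn1c CPM against the summed CPM of 12 podocyte markers, and right, Ccng1 CPM against the summed CPM of 12 proximal tubule markers, one point per library labelled with its replicate number and coloured by group. Knockout replicate 1 stands alone at 3.28 CPM of Cdkn1c and a podocyte sum of 164 CPM, and the 3 injured wild-type libraries are low on both axes of the Ccng1 panel.

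The INK4 gene Cdkn2b showed the largest fold changes of all 9 tested genes in both knockout comparisons. It encodes p15, an inhibitor of CDK4 and CDK6 that transforming growth factor beta is known to induce (ENSMUSG00000073802, chr4:89306299-89311039, minus strand), and it lies 11645 bases from Cdkn2a. Its counts were 5, 5 and 6 in injured knockout libraries, 84, 91 and 103 in injured wild-type libraries and 26, 31 and 26 in sham libraries. As CPM these were 0.365, 0.376 and 0.412 CPM in injured knockout, 3.86, 4.04 and 4.43 CPM in injured wild-type and 1.52, 1.71 and 1.55 CPM in sham libraries. The groups did not overlap, with injured knockout libraries lowest, sham libraries between and injured wild-type libraries highest. Cdkn2b rose 2.57-fold in injured over sham wild-type kidneys (edgeR log2 fold change 1.36, SE 0.24, adjusted p = 0.000505). Its level was 10.5-fold lower in injured knockout than injured wild-type kidneys (edgeR log2 fold change -3.39, SE 0.30, adjusted p = 2.89e-06) and 4.09-fold lower than in sham kidneys (edgeR log2 fold change -2.03, SE 0.31, adjusted p = 0.00505). Of the 15974 tested genes, 94 had a lower log2 fold change in injured knockout over sham kidneys, and 431 had a lower one in injured knockout over injured wild-type kidneys. These 3 calls held under every alternative, although the knockout values rest on 16 counts in all.

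Cdkn2a encodes both the CDK inhibitor p16Ink4a and p19Arf, which restrains MDM2, from separate first exons that these counts join (ENSMUSG00000044303, chr4:89274471-89294653, minus strand). It had 0, 2 and 2 counts in injured knockout libraries, 19, 7 and 18 counts in injured wild-type libraries and 2, 0 and 0 counts in sham libraries. Every injured wild-type library exceeded every other library, but the gene was near the limit of detection. From 44 counts against 2, its level in injured wild-type kidneys was 16.9 times that in sham kidneys, with a 95% counting interval of 4.42 to 144. From 4 counts against 44, injured knockout kidneys had 0.148 times the level of injured wild-type kidneys (interval 0.0386 to 0.406). Against sham, 4 counts stood against 2, a ratio of 2.50 (interval 0.359 to 27.7). These intervals are exact binomial ones and cover counting error only. With no low-count filter edgeR called the rise with injury (log2 fold change 3.85, adjusted p = 0.00171) and the lower level in injured knockout kidneys (log2 fold change -2.68, adjusted p = 0.0222). Cdkn2a also passed the low-count filter in some fits that left out 1 library. Without knockout replicate 1 the difference between the injured groups was not called (log2 fold change -2.12, edgeR adjusted p = 0.0618). It was called without knockout replicate 2 or 3, injured wild-type replicate 2 or any 1 sham library (edgeR adjusted p = 0.0155 to 0.0446). The rise with injury was called in each of these fits (edgeR adjusted p = 0.00298 to 0.0230).

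Cdkn2c and Cdkn2d differed from Cdkn2b in that neither was called between the injured groups. Cdkn2c encodes p18 (ENSMUSG00000028551, chr4:109660876-109667189, minus strand) and had 14.5, 23.1 and 13.4 CPM in injured knockout libraries, 22.05, 17.4 and 17.7 CPM in injured wild-type libraries and 10.2, 10.5 and 9.28 CPM in sham libraries. All 6 injured libraries lay above the sham libraries, and the injured groups overlapped, with knockout replicate 2 the highest library of all. Cdkn2c rose 1.90-fold in injured over sham wild-type kidneys (edgeR log2 fold change 0.93, SE 0.20, adjusted p = 0.00202) and was 1.70-fold higher in injured knockout than in sham kidneys (edgeR log2 fold change 0.76, SE 0.20, adjusted p = 0.0270). The call against sham ended when knockout replicate 2 or any 1 sham library was left out, with edgeR adjusted p-values of 0.0540 to 0.0926 and log2 fold changes of 0.48 to 0.80. Between the injured groups the log2 fold change was -0.17 (95% interval -0.60 to 0.27). It became -0.44 and was called without knockout replicate 2 (edgeR adjusted p = 0.0387), and with library size alone it was -0.75 and called (edgeR adjusted p = 0.00489).

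Cdkn2d, which encodes p19Ink4d (ENSMUSG00000096472, chr9:21288410-21291407, minus strand), had 6.57, 10.7 and 7.28 CPM in injured knockout libraries, 10.3, 10.6 and 8.56 CPM in injured wild-type libraries and 6.62, 5.59 and 7.67 CPM in sham libraries. Injured wild-type libraries lay above sham libraries with no overlap, and the knockout libraries spanned both. It rose 1.48-fold with injury (edgeR log2 fold change 0.57, SE 0.21, adjusted p = 0.0349), a call that ended without injured wild-type replicate 1 or 2 or without sham replicate 1 or 2, with edgeR adjusted p-values from 0.0812 to 0.118. Injured knockout over injured wild-type kidneys gave -0.27 on the log2 scale (95% interval -0.73 to 0.19) and injured knockout over sham kidneys 0.30 (95% interval -0.17 to 0.77), neither called, while with library size alone the first of these was -0.85 and called (edgeR adjusted p = 0.00327).

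Trp53 mRNA was highest in the same libraries as Cdkn1a (ENSMUSG00000059552, chr11:69580359-69591873, plus strand). Its level was 39.6, 33.6 and 40.4 CPM in injured knockout libraries, 58.1, 69.4 and 56.8 CPM in injured wild-type libraries and 39.1, 33.96 and 30.8 CPM in sham libraries. The injured wild-type libraries lay above all others, and injured knockout and sham libraries overlapped. Trp53 rose 1.77-fold with injury, to 61.4 ± 6.93 CPM against 34.6 ± 4.20 CPM in sham libraries (SD, n = 3 each; edgeR log2 fold change 0.83, SE 0.12, adjusted p = 0.000155). In injured knockout kidneys it was 37.9 ± 3.73 CPM, 1.62-fold lower than in injured wild-type kidneys (edgeR log2 fold change -0.70, SE 0.12, adjusted p = 0.000559). Against sham the difference was 0.13 on the log2 scale and not called (95% interval -0.15 to 0.40). The activity of p53 is set mainly at the protein, which was not measured here, and a processed pseudogene named after Trp53 had 0 counts.

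Mdm2, a p53 target that marks p53 for degradation (ENSMUSG00000020184, chr10:117688875-117710758, minus strand), was not called in any comparison. It had 74.8, 46.7 and 56.9 CPM in injured knockout libraries, 50.6, 55.7 and 56.8 CPM in injured wild-type libraries and 61.03, 64.7 and 59.3 CPM in sham libraries. Injured wild-type libraries were all below sham libraries by a small margin, and the knockout libraries spanned the range of both, with replicate 1 highest and replicate 2 lowest of all 9. Injured wild-type over sham kidneys gave a log2 fold change of -0.18 (95% interval -0.50 to 0.13) and injured knockout over injured wild-type kidneys 0.13 (95% interval -0.19 to 0.45). With library size alone the signs turned, to 0.36 (edgeR adjusted p = 0.0516) and -0.45 (edgeR adjusted p = 0.0210), and the second was then called. The ratio of Mdm2 to Trp53 CPM was 1.89, 1.39 and 1.41 in injured knockout libraries, 0.870, 0.802 and 1.0 in injured wild-type libraries and 1.56, 1.90 and 1.92 in sham libraries. This ratio does not depend on the scaling, and it was lower in every injured wild-type library than in any other library.

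Ccng1 went the opposite way to Cdkn1a. It encodes cyclin G1, a p53 target that recruits a phosphatase to MDM2 (ENSMUSG00000020326, chr11:40748552-40755311, minus strand), and per length it was the most abundant of the 10 genes. Its level was 216, 225 and 186 CPM in injured knockout libraries, 117, 123 and 137 CPM in injured wild-type libraries and 183, 217 and 182 CPM in sham libraries. Every injured wild-type library lay under every other library, and injured knockout and sham libraries overlapped. Ccng1 fell 1.54-fold in injured over sham wild-type kidneys (edgeR log2 fold change -0.62, SE 0.11, adjusted p = 0.000632) and was 1.66-fold higher in injured knockout than injured wild-type kidneys (edgeR log2 fold change 0.73, SE 0.11, adjusted p = 0.000216), but neither call held with library size alone, where the values were -0.078 (adjusted p = 0.568) and 0.15 (adjusted p = 0.286). The fall with injury was also not called when library sizes left out the 20 most abundant genes (log2 fold change -0.20, edgeR adjusted p = 0.136). Relative to Cdkn1a the difference does not depend on scaling. The ratio of Ccng1 to Cdkn1a CPM was 12.2, 26.9 and 26.8 in injured knockout libraries, 4.28, 2.94 and 4.86 in injured wild-type libraries and 18.5, 23.5 and 13.8 in sham libraries. The low Ccng1 of injured wild-type libraries stood beside their low proximal tubule sum, and the part of that cell type in the result was not tested.

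Levels per length were compared as RPKM, CPM divided by exon length in kilobases. Ccng1 led in every group, at 59.5 ± 5.85 RPKM in injured knockout, 35.8 ± 2.85 RPKM in injured wild-type and 55.3 ± 5.72 RPKM in sham libraries (SD, n = 3), and Cdkn2b and Cdkn2a were lowest in each. In sham kidneys Cdkn1b (12.9 ± 0.945 RPKM) and Mdm2 (12.1 ± 0.540 RPKM) came next and lay within their spread of each other, as did Cdkn1c (9.56 ± 2.85 RPKM) and Trp53 (8.56 ± 1.04 RPKM). In injured wild-type kidneys Trp53 was second at 15.2 ± 1.71 RPKM, within its spread of Cdkn1b at 14.4 ± 1.36 RPKM. Mdm2, Cdkn1c and Cdkn1a followed at 10.7 ± 0.653, 10.3 ± 1.28 and 9.15 ± 2.30 RPKM, which also lay within their spread of one another. In injured knockout kidneys the 4 genes after Ccng1 were Mdm2 at 11.7 ± 2.80, Trp53 at 9.36 ± 0.923, Cdkn1b at 8.84 ± 0.223 and Cdkn1c at 8.14 ± 5.83 RPKM, whose order is not fixed given the spread of Mdm2 and Cdkn1c.

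Summed over the family, Cip/Kip inhibitors reached 15.2, 21.1 and 23.9 RPKM in injured knockout libraries, 30.4, 36.8 and 34.3 RPKM in injured wild-type libraries and 27.8, 22.9 and 25.8 RPKM in sham libraries. All 3 injured wild-type libraries were above the rest. Cdkn1a made up 17.3 ± 13.4% of that sum in injured knockout, 26.9 ± 4.67% in injured wild-type and 11.9 ± 2.20% in sham libraries (SD, n = 3), and within the knockout group 32.7%, 11.1% and 8.18% in replicates 1, 2 and 3. Its share in knockout replicate 1, the library with little Cdkn1c, was thus the highest of all 9. The INK4 sum was 9.82, 15.8 and 10.03 RPKM in injured knockout libraries, 18.3, 16.4 and 15.9 RPKM in injured wild-type libraries and 9.22, 8.67 and 9.44 RPKM in sham libraries. Cdkn2b took 2.45 ± 0.651% of it in injured knockout, 17.7 ± 2.46% in injured wild-type and 12.6 ± 1.38% in sham libraries (SD, n = 3), so that in knockout kidneys the INK4 sum was almost wholly Cdkn2c and Cdkn2d.

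The genes with the most similar profile were found for 9 of the 10 genes, Cdkn2a being too low, by the root mean square distance of centred log2 CPM over the 9 libraries, among 11208 genes of at least 5 CPM. Closest to Cdkn1a were Rrad, a small GTPase gene, at a distance of 0.196 and the kinetochore gene Cenpt at 0.231, against a median of 0.923 over all candidates. As the smallest of all distances, those of the nearest genes lie under the median by selection. Distances also tend to be larger for genes that vary more over the libraries. That spread was 0.855 for Cdkn1a and 0.184 for Mdm2, so distances are not compared between the genes. Rrad had 8.18, 5.57 and 4.12 CPM in injured knockout libraries, 17.5, 22.1 and 18.7 CPM in injured wild-type libraries and 6.09, 4.37 and 6.54 CPM in sham libraries, so it too was highest in injured wild-type libraries and, among knockout libraries, in replicate 1. Cdkn1b was followed most closely by Marf1 (0.0595) and the chromatin remodeller gene Chd9 (0.0659; median 0.468). Marf1 shared the fall against both other groups, with log2 fold changes of -0.70 against injured wild-type and -0.50 against sham kidneys. The nearest profile to Cdkn1c was that of Ddn, the gene of the podocyte protein dendrin (0.241; median 0.945), which had 2.41, 17.4 and 23.97 CPM in injured knockout libraries. Tmem88 was almost as close (0.264), with 1.02, 6.85 and 5.29 CPM in these libraries. Next to Cdkn2b stood Samd5 (0.310) and Phgdh, the first enzyme of serine synthesis (0.353; median 1.32). Phgdh had 4.67, 4.67 and 4.95 CPM in injured knockout libraries, 25.7, 28.2 and 25.5 CPM in injured wild-type libraries and 9.02, 9.51 and 10.4 CPM in sham libraries, with the same order of groups as Cdkn2b.

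For Cdkn2c the nearest were Xylt2 (0.149) and Azin2 (0.153), with a median of 0.589. For Cdkn2d they were the actin-binding Cotl1 (0.0678) and Aldh3b1 (0.0962), with a median of 0.477. Trp53 had the nucleic acid binding protein gene Ybx3 (0.0902) and prothymosin alpha, Ptma (0.0946; median 0.522). Mdm2 had Swt1 (0.0739) and Rabgef1 (0.0772; median 0.362). The neighbours of Ccng1 both encode mitochondrial proteins, the ribosomal protein gene Mrpl44 (0.0760) and the carbonic anhydrase gene Car5b (0.0772; median 0.424). Car5b had 81.1, 89.6 and 71.4 CPM in injured knockout libraries, 46.3, 47.99 and 53.5 CPM in injured wild-type libraries and 76.1, 74.6 and 65.2 CPM in sham libraries. None of these neighbours is another of the 10 genes, which were not candidates.

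Other targets of p53 moved in both directions with injury. In the list of 23 targets that act in arrest and repair, 22 were tested, and 10 rose and 3 fell in injured wild-type over sham kidneys, with a median log2 fold change of 0.49, so that 13 of 22 were called against 58.2% of all genes (17 higher and 2 lower with library size alone). Phlda3, an inhibitor of AKT, rose most of those with at least 5 CPM and had 8.76, 8.66 and 7.21 CPM in injured knockout libraries, 28.1, 31.4 and 29.8 CPM in injured wild-type libraries and 5.74, 6.64 and 4.34 CPM in sham libraries (edgeR log2 fold change 2.41, SE 0.17, adjusted p = 6.86e-07). Ak1, an adenylate kinase gene, rose by 1.35, the DNA damage gene Gadd45a by 1.20 and the sestrin gene Sesn1 by 0.70 on the log2 scale. Sesn2, whose product restrains mTORC1, went the other way and had 52.6, 169.8 and 98.5 CPM in injured knockout libraries, 39.04, 50.97 and 31.8 CPM in injured wild-type libraries and 185, 180.3 and 276 CPM in sham libraries (edgeR log2 fold change -2.40, SE 0.35, adjusted p = 0.000139). Rrm2b, a ribonucleotide reductase subunit, fell by 1.29 on the log2 scale. Between injured knockout and injured wild-type kidneys 9 of the 22 were lower and 4 higher, with a median of -0.37, again 13 of 22 called against 55.9% of all genes (2 higher and 17 lower with library size alone). Phlda3 was lower (-1.86, edgeR adjusted p = 3.17e-06) and Sesn2 higher (1.40, edgeR adjusted p = 0.00485), while Zmat3 was not called with injury (-0.17, 95% interval -0.51 to 0.17) or between the injured groups (0.00, 95% interval -0.34 to 0.35). Gdf15, a stress cytokine gene, rose with injury by 1.07 (edgeR adjusted p = 0.00797, groups overlapping) and was not called between the injured groups (-0.27, 95% interval -0.90 to 0.35).

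Of 17 p53 targets in cell death, 9 rose and 5 fell with injury, at a median of 0.50, against 58.2% of all genes called (12 higher and 2 lower with library size alone). The genes of the BH3-only proteins NOXA and PUMA were among the risers. Pmaip1 (NOXA) had 7.23, 4.52 and 7.56 CPM in injured knockout libraries, 43.1, 44.6 and 38.8 CPM in injured wild-type libraries and 7.32, 8.35 and 8.44 CPM in sham libraries and rose by 2.39 on the log2 scale (edgeR adjusted p = 9.38e-07). Bbc3 (PUMA) rose by 1.88, the apoptosome gene Apaf1 by 1.76 and the tumour necrosis factor receptor family gene Eda2r by 2.75. In injured knockout kidneys these 4 were lower than in injured wild-type kidneys, at -2.71, -2.23, -1.87 and -2.54 in that order. Perp, a p53 target of epithelial junctions, fell with injury (-0.85) and was higher in injured knockout kidneys (0.99), as Ccng1 was. In all, 8 of the 17 were lower and 5 higher in injured knockout than injured wild-type kidneys (median -0.15; 1 higher and 10 lower with library size alone). In that comparison 55.9% of all tested genes were called. Bax, the pore-forming effector, was not called between the injured groups (0.21, 95% interval -0.09 to 0.51). It had 39.6, 35.2 and 38.6 CPM in injured knockout libraries, 27.8, 33.5 and 36.7 CPM in injured wild-type libraries and 27.1, 20.7 and 21.3 CPM in sham libraries, and was higher than sham in both injured wild-type (log2 fold change 0.50, edgeR adjusted p = 0.00848) and injured knockout kidneys (0.71, edgeR adjusted p = 0.00953). The second call ended without sham replicate 2 (0.64, edgeR adjusted p = 0.0519). Of the 5 genes that fell with injury in this list, Ei24, Ninj1 and Triap1 lost the call with library size alone, and the value of Triap1 turned positive.

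Among regulators of p53, 4 of 15 tested rose and 4 fell with injury, at a median of -0.05, against 58.2% of all genes called. Mdm4, which encodes the partner of MDM2, had 115, 80.04 and 128 CPM in injured knockout libraries, 136, 131 and 189.6 CPM in injured wild-type libraries and 83.9, 76.7 and 84.1 CPM in sham libraries and rose (edgeR log2 fold change 0.90, SE 0.18, adjusted p = 0.00115). Mdm4 was lower in injured knockout than injured wild-type kidneys (-0.50, edgeR adjusted p = 0.0317), a call that ended without knockout replicate 2 (-0.31, edgeR adjusted p = 0.123) or injured wild-type replicate 3 (-0.31, edgeR adjusted p = 0.149). Hipk2, a kinase of p53, was lower in both injured groups, with 8.61, 7.15 and 7.90 CPM in injured knockout libraries, 9.28, 7.01 and 7.09 CPM in injured wild-type libraries and 15.1, 35.4 and 32.5 CPM in sham libraries. Its log2 fold change was -1.83 in injured wild-type over sham kidneys (edgeR adjusted p = 0.000149) and -1.81 in injured knockout over sham kidneys (edgeR adjusted p = 0.00505). Between the injured groups Hipk2 differed by 0.02 (95% interval -0.60 to 0.63, not called). In that comparison, in which 55.9% of all genes were called, 3 of the 15 regulators were lower and 1 higher, and 2 in all without knockout replicate 2 or injured wild-type replicate 3. The p53 relative Trp63 averaged 0.624 ± 0.250 CPM in injured knockout libraries, 1.03 ± 0.410 CPM in injured wild-type libraries and 0.579 ± 0.0783 CPM in sham libraries (SD, n = 3) and was not called, and Trp73 was removed by the low-count filter. With library size alone 11 of the 15 were higher and 1 lower with injury, and 0 higher and 13 lower between the injured groups, so the balance of directions in this list depends on the scaling.

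**Figure D4:**
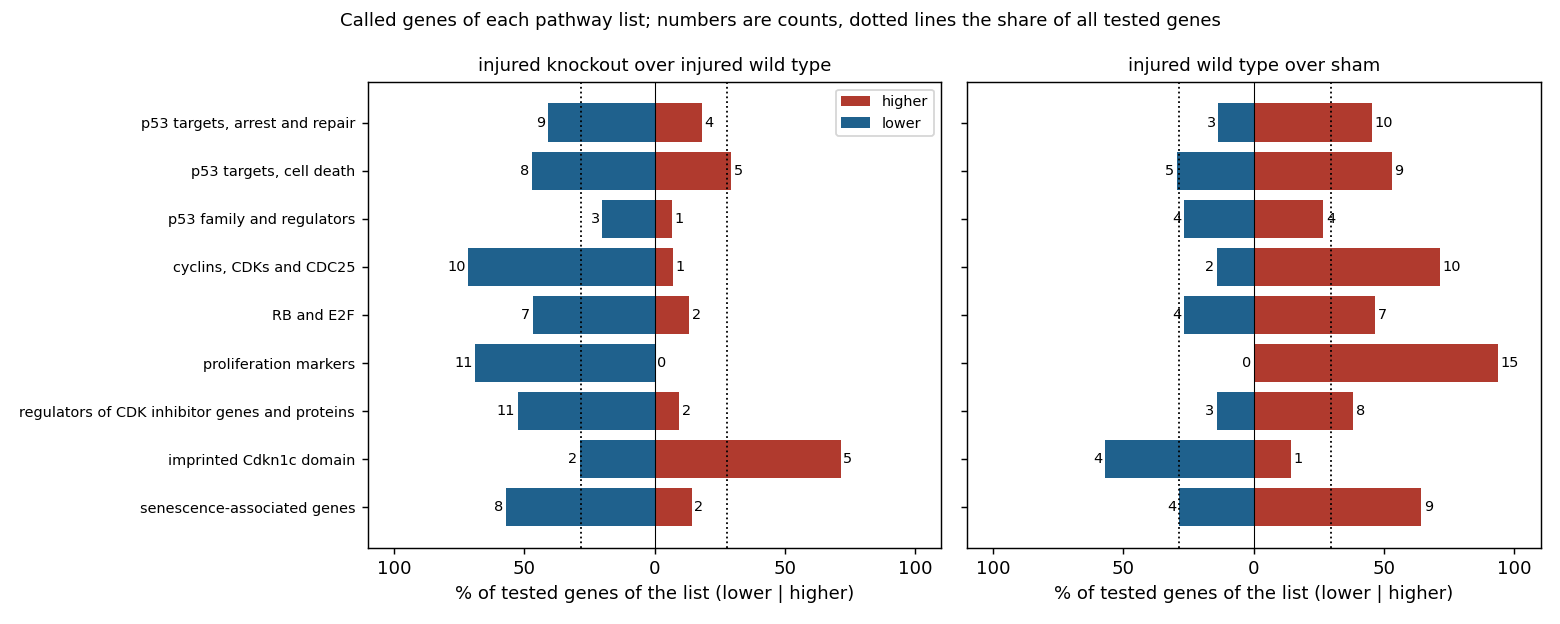
Share of the tested genes of each pathway list that were called higher (red, right) or lower (blue, left) in injured knockout over injured wild-type kidneys and in injured wild-type over sham kidneys, with the number of genes at each bar and dotted lines at the share of all tested genes. In the list of proliferation markers 15 of 16 rose with injury, and 11 were lower in injured knockout than injured wild-type kidneys.

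A list of cyclins, CDKs and CDC25 phosphatases reached beyond the G1 kinases that the INK4 proteins bind. Of 14 tested 10 rose and 2 fell with injury, at a median of 1.03, against 58.2% of all genes called. Of the 10 that rose, Ccna2, Ccnb1, Ccnb2, Cdk1 and Cdc25b act mainly in S phase, G2 or mitosis, and Ccnd2, Ccne1, Cdk2, Cdk4 and Cdk6 in G1 or at entry into S phase. Ccnd3 and Cdc25a fell, though neither was called lower with library size alone. In the comparison of the injured groups, in which 55.9% of all genes were called, 10 were lower and 1 higher in injured knockout than injured wild-type kidneys, at -1.02. With library size alone these were 12 higher and 0 lower with injury and 0 higher and 13 lower between the injured groups. Cdk4, the kinase that INK4 proteins bind, had 76.9, 80.3 and 74.5 CPM in injured knockout libraries, 115, 113 and 106 CPM in injured wild-type libraries and 58.4, 50.4 and 60.9 CPM in sham libraries. Each group stood apart from the others, and Cdk4 rose with injury by 0.98 (edgeR adjusted p = 7.33e-06) and was lower in injured knockout than injured wild-type kidneys, at -0.53 (edgeR adjusted p = 0.000690). Cdk6 had 42.9, 22.4 and 21.5 CPM in injured knockout libraries, 59.2, 68.2 and 54.6 CPM in injured wild-type libraries and 24.6, 30.3 and 30.5 CPM in sham libraries, with log2 fold changes of 1.09 and -1.07 in these comparisons, both called. Ccne1, cyclin E1, rose by 2.28 with injury and was lower in injured knockout than injured wild-type kidneys, at -1.37. The phosphatase gene Cdc25b, whose product removes inhibitory phosphates from CDKs, rose by 1.72 and was lower between the injured groups at -0.98. Cyclin D1 was not called, with Ccnd1 at 49.3, 74.2 and 37.8 CPM in injured knockout libraries, 48.9, 55.2 and 45.7 CPM in injured wild-type libraries and 38.4, 51.2 and 53.9 CPM in sham libraries. Cyclin D2 was, and Ccnd2 was lower in injured knockout kidneys than in both injured wild-type (-1.23, edgeR adjusted p = 0.000266) and sham kidneys (-0.64, edgeR adjusted p = 0.0464), the call against sham ending when any 1 library other than knockout replicate 2 was left out (edgeR adjusted p = 0.0552 to 0.129). Its rise with injury (0.58, edgeR adjusted p = 0.0207) ended without injured wild-type replicate 1, sham replicate 2 or sham replicate 3 (edgeR adjusted p = 0.0674 to 0.0787).

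In the list of retinoblastoma proteins and E2F factors 7 of 15 rose and 4 fell with injury (median 0.46), and 7 were lower and 2 higher in injured knockout than injured wild-type kidneys (median -0.20). With library size alone these were 10 higher and 0 lower with injury and 0 higher and 12 lower between the injured groups. Among all tested genes, as scaled here, 58.2% were called with injury and 55.9% between the injured groups. Rb1 was not called, at 29.4, 25.8 and 32.97 CPM in injured knockout libraries, 33.1, 31.03 and 31.7 CPM in injured wild-type libraries and 27.00, 30.3 and 22.5 CPM in sham libraries. Its relatives went apart, with Rbl1 up by 0.91 (edgeR adjusted p = 0.00138) and Rbl2 down by 0.83 on the log2 scale (edgeR adjusted p = 0.000815) with injury, the second not called with library size alone. E2f1 rose by 0.98 (edgeR adjusted p = 0.0397), a call that ended without knockout replicate 3, without any 1 injured wild-type library, or without sham replicate 1 or 2 (edgeR adjusted p = 0.0534 to 0.137). Proliferation markers rose more uniformly, 15 of 16 with injury and none down, at a median of 2.002. Mki67, the gene of the Ki-67 antigen, had 7.96, 7.91 and 6.73 CPM in injured knockout libraries, 31.01, 27.7 and 31.3 CPM in injured wild-type libraries and 3.63, 4.31 and 3.81 CPM in sham libraries (injured wild-type over sham, edgeR log2 fold change 2.93, SE 0.14, adjusted p = 1.71e-07). Top2a, the topoisomerase of dividing cells, rose by 2.58 and Mcm3, a subunit of the replicative helicase, by 2.10. Between injured knockout and injured wild-type kidneys 11 of the 16 were lower and none higher (median -0.92; Mki67 -1.99), and Mki67 stayed above sham in injured knockout kidneys (0.94, edgeR adjusted p = 0.00505). Cdkn1a and the summed proliferation markers were thus both highest in the injured wild-type libraries, in RNA that mixes all cells of the kidney.

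Genes known to regulate the inhibitors were tested as a list of 22, of which 21 passed the filter. Of all tested genes 58.2% were called with injury and 55.9% between the injured groups. With injury 8 rose and 3 fell (median 0.20; 15 higher and 1 lower with library size alone), and 11 were lower and 2 higher in injured knockout than injured wild-type kidneys (median -0.34; 0 higher and 17 lower with library size alone). Runx1, a transcription factor, had 3.36, 1.43 and 0.687 CPM in injured knockout libraries, 48.97, 57.2 and 42.6 CPM in injured wild-type libraries and 3.05, 2.93 and 2.08 CPM in sham libraries. Its log2 fold change was 4.20 with injury (edgeR adjusted p = 1.92e-06) and -4.77 in injured knockout over injured wild-type kidneys (edgeR adjusted p = 1.42e-06). Klf6, which can activate Cdkn1a, rose by 2.001 and was lower between the injured groups, at -2.51. Ezh2, the Polycomb methyltransferase that represses the Cdkn2a locus, had 6.06, 5.20 and 5.84 CPM in injured knockout libraries, 11.7, 13.6 and 12.4 CPM in injured wild-type libraries and 3.69, 4.92 and 4.82 CPM in sham libraries, so it was highest in the same libraries as Cdkn2a and Cdkn2b. Bmi1, another Polycomb gene of that locus, did not pass the test with injury (-0.06, 95% interval -0.26 to 0.13). It was lower in injured knockout kidneys than in injured wild-type (-0.25, edgeR adjusted p = 0.0291) and sham kidneys (-0.32, edgeR adjusted p = 0.0318). The first call ended without knockout replicate 2 or 3, injured wild-type replicate 1 or 3 or sham replicate 3 (edgeR adjusted p = 0.0520 to 0.111), and the second without knockout replicate 2 or 3, injured wild-type replicate 1 or any 1 sham library (edgeR adjusted p = 0.0563 to 0.103). Skp2, whose product marks p27 for degradation, was removed by the low-count filter.

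Cdkn1c lies in an imprinted domain of chromosome 7, and other genes of the domain were called where Cdkn1c was not. The share of all tested genes called was 58.2% with injury and 55.9% between the injured groups. Of 10 listed genes 7 were tested, and with injury 1 rose and 4 fell (median -0.39; 2 higher and 2 lower with library size alone), while 5 were higher and 2 lower in injured knockout than injured wild-type kidneys (median 0.60; 2 higher and 3 lower with library size alone). Slc22a18, a transporter gene, had 805, 900.2 and 997 CPM in injured knockout libraries, 171, 183 and 125 CPM in injured wild-type libraries and 858, 719.9 and 735 CPM in sham libraries and fell with injury (edgeR log2 fold change -2.27, SE 0.16, adjusted p = 6.89e-07). Phlda2 had 15.7, 24.4 and 25.1 CPM in injured knockout libraries, 8.73, 7.95 and 7.31 CPM in injured wild-type libraries and 15.2, 17.6 and 16.3 CPM in sham libraries, and Osbpl5 was the 1 that rose (0.73, edgeR adjusted p = 0.00118). In knockout replicate 1, where Cdkn1c was lowest of all 9 libraries, Slc22a18 and Phlda2 lay above every injured wild-type library. Kcnq1ot1, the antisense RNA that silences the paternal copies, was at 3.43, 1.96 and 4.12 CPM in injured knockout libraries, 5.74, 3.996 and 7.70 CPM in injured wild-type libraries and 5.68, 5.20 and 4.46 CPM in sham libraries and not called with injury (0.18, 95% interval -0.45 to 0.82). It was lower in injured knockout than injured wild-type kidneys (log2 fold change -0.87, edgeR adjusted p = 0.0298, groups overlapping), a call that ended without knockout replicate 2 or injured wild-type replicate 1 or 3 (edgeR adjusted p = 0.0604 to 0.134). With the strand setting of the counting unknown, its reads cannot be told apart from those of Kcnq1. The fold changes of Slc22a18 and Phlda2 stood beside those of the proximal tubule markers, all 12 of which were lower in injured wild-type than in sham kidneys and higher in injured knockout than injured wild-type kidneys, and the part of that cell type was not tested.

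Genes often listed with cellular senescence rose in 9 and fell in 4 of 14 tested cases with injury (median 1.29; 10 higher and 2 lower with library size alone), and 8 were lower and 2 higher in injured knockout than injured wild-type kidneys (median -1.29; 2 higher and 10 lower with library size alone). In these comparisons 58.2% and 55.9% of all tested genes were called. Timp1, a protease inhibitor gene, had 1.90, 0.602 and 0.343 CPM in injured knockout libraries, 34.8, 55.7 and 60.6 CPM in injured wild-type libraries and 1.93, 0.885 and 0.773 CPM in sham libraries. It was higher in injured wild-type than in sham kidneys (log2 fold change 5.39) and lower in injured knockout than injured wild-type kidneys (-5.73). Cxcl1 rose by 3.06 (edgeR adjusted p = 0.00301) with a wide spread, 25.7, 108 and 47.3 CPM in injured wild-type libraries against 4.63, 14.2 and 2.85 CPM in sham libraries. Lmnb1, which senescent cells are known to lose, rose with injury (1.64, edgeR adjusted p = 4.02e-06), and Glb1, the gene of the lysosomal galactosidase stained in senescent cells, fell (-1.10, edgeR adjusted p = 1.07e-05). Lmnb1 and Glb1 moved against the usual direction of the list. Besides Glb1, the genes that fell were Igfbp3, Igfbp5 and Vegfa, and Hmgb2 rose as Lmnb1 did. The list's rise stood beside that of the fibroblast and macrophage markers, all 10 of each called higher with injury, whose part in it was not tested.

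In injured knockout over sham kidneys, where 17.6% of all genes were called, the counts of these lists moved with single libraries. Of the 16 proliferation markers 7 were higher and none lower, with a median of 0.76, namely Aurka, Birc5, Cdc20, Cenpf, Mki67, Plk1 and Rrm2. That count was 3 without knockout replicate 2 or sham replicate 2, and 4 without knockout replicate 1, injured wild-type replicate 1 or 2 or sham replicate 1. Of the cyclins, CDKs and CDC25 phosphatases 4 of 14 were higher (Ccnb2, Cdc25b, Cdk1 and Cdk4) and 1 lower (Ccnd2) (median 0.25), 2 in all without sham replicate 2 or 3, and Cdk4 was higher by 0.45 (edgeR adjusted p = 0.0127), a call that ended without sham replicate 2 (0.37, edgeR adjusted p = 0.0671). Of p53 targets in arrest and repair 4 of 22 were higher and 1 lower (median 0.33), 2 in all without knockout replicate 3 and 3 without sham replicate 2 or 3. Of p53 targets in cell death Bax alone of 17 was called (median 0.12), and Pmaip1 and Bbc3 were not, with log2 fold changes of -0.32 (95% interval -0.72 to 0.08) and -0.34 (95% interval -0.84 to 0.15). Among regulators of p53 Atm and Hipk2 of 15 were lower. Hipk2 kept its call in every leave-one-out fit, while Atm (log2 fold change -0.99, edgeR adjusted p = 0.0453) lost its call when any 1 library other than sham replicate 1 was left out (edgeR adjusted p = 0.0531 to 0.161). Of the regulators of CDK inhibitors 5 of 21 were lower and none higher (median -0.19), a count of 2 without knockout replicate 2 or sham replicate 2, 3 without knockout replicate 3 or sham replicate 3, and 8 without knockout replicate 1. In the retinoblastoma and E2F list only Rbl2 of 15 was called, lower, and in the imprinted domain only Cd81 of 7, higher; both lists had a count of 0 without sham replicate 2, and the imprinted domain also without sham replicate 3 and a count of 2 without knockout replicate 1. Of the senescence list Icam1, Lmnb1 and Plaur of 14 were lower, a count of 1 without knockout replicate 1 or 2, injured wild-type replicate 1, or sham replicate 1 or 2. Beside these, Cdkn1b and Cdkn2b were the CDK inhibitor genes whose fall against sham held in every alternative.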

How the data were processed

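Kidney RNA in 9 libraries (3 groups of 3) was measured by RNA-seq. The authors deposited 1 table of raw counts per gene, with whole-number counts for 56305 gene identifiers and no normalization. The build mm10 and DESeq2 1.16.1 are named in the submitters' processing notes, without their roles. The sources used here name no aligner, counting tool, annotation or strand setting. Gene names and positions came from GENCODE M21, which matched 55141 of the 56305 identifiers.

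Genes were filtered with filterByExpr, which kept 15974, scaled with TMM and tested with edgeR 4.0.16 (R 4.3.3, limma 3.58.1) in 1 quasi-likelihood fit to all 9 libraries with the group as the only term. The tests were 2-sided, p-values were adjusted by Benjamini and Hochberg's method across the 15974 genes, and the threshold was 0.05. The fit was also run on simulated counts in which few genes were changed, so that run does not bear on the scaling of these data. Levels are TMM-scaled CPM computed from the counts. RPKM used summed exon length.

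The 10 genes and the gene lists were chosen with earlier results of these data known. Beside the 10, the text names Pfkfb3, the 3 largest changes with injury in each list at 5 CPM or more, a fixed panel and the 2 nearest profiles of each gene, though some genes of that rule are not reported here. Gadd45a, Sesn1, Rrm2b, Perp, Ei24, Ninj1, Triap1, Lmnb1, Glb1 and genes listed only as called lie outside that rule and were chosen after their values were seen. Alternatives were other scalings, DESeq2 1.42.0, limma-voom, other filters, only the groups compared, a replicate block and each library left out in turn.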

Additional observations from a re-analysis of the deposited data

How the results depend on the processing

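Across 18 alternatives 10 of the 14 calls on the 10 genes were kept in every one, and 451 of 486 values kept their direction and their side of the threshold. The cause of the exceptions was not tested. Cdkn1a in injured knockout over sham kidneys, 0.03 as reported, was -0.0077 with library size alone, -0.077 with limma-voom and -0.023 with a replicate block, and -0.49 to 0.28 when single libraries were left out. Cdkn1c ranged from -0.0080 to 0.38 with injury, -0.83 to 0.15 between the injured groups and -0.73 to 0.26 in injured knockout over sham kidneys when single libraries were left out. Mdm2 with injury was 0.36 with library size alone and 0.24 without the 20 most abundant genes in the library sizes, and between the injured groups -0.45 and -0.25 under the same choices and -0.060 to 0.29 when single libraries were left out. For injured knockout over sham kidneys it was -0.25 to 0.095 when single libraries were left out. The number of all genes called in injured knockout over sham kidneys, 2812 as reported, was 641 without sham replicate 2, 1064 without sham replicate 3, 1561 without knockout replicate 3, 1683 without knockout replicate 2, and at most 2868 when a single library was left out. Calls on the 10 genes numbered 5 to 7 with injury, 5 to 7 between the injured groups and 2 to 3 in injured knockout over sham kidneys, where 7 with injury includes Cdkn2a. Same-numbered libraries did not deviate together, with correlations of -0.12 to 0.06, so the numbers were not used as pairs. A replicate block left 5, 5 and 3 of the 10 genes called in the 3 comparisons, and 8885, 8527 and 2048 of all genes, and Cdkn2d lost its call with injury under it (0.56, edgeR adjusted p = 0.0604). Depth limits Cdkn2a, with 50 counts over all 9 libraries, and Cdkn2b in injured knockout kidneys, with 16.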
